A study of Mus musculus with 16 samples.

Results

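Foxp3, the transcription factor that defines regulatory T cells (Treg), acts together with other DNA-binding proteins. The 10 genes described here encode 3 families of them: the Runx proteins Runx1 and Runx3 with their common subunit Cbfb, the NFAT proteins Nfatc1, Nfatc2 and Nfatc3, and the forkhead proteins Foxp1, Foxp4, Foxo1 and Foxo3. They were chosen by name, and every probe set annotated to one of them was taken, which gave 36 of the 45141 probe sets on the arrays, or 10 of 17075 genes with a probe set of their own. A probe set is a group of short oligonucleotides that together give 1 value for a transcript. Of the 36, 34 were listed for 1 gene and 2 for both Nfatc2 and Eogt, so the signal of those 2 cannot be assigned to either.

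The cells were CD4 T cells from spleens of NOD/LtJ mice aged 6 weeks, a strain that develops autoimmune diabetes. KI mice carried Foxp3tm2Ayr, labelled Foxp3gfp, an allele known to fuse green fluorescent protein to the amino end of Foxp3. WT mice were not free of a reporter: they carried Tg(Foxp3-EGFP/cre)1aJbs, a transgene that makes a fluorescent Cre fusion under Foxp3 control. Each genotype gave Treg and conventional T cells (Tconv), so the groups were KI Treg, WT Treg, KI Tconv and WT Tconv, with 4 arrays each and 16 in all. The labels do not say that arrays of a group came from different mice, so the p-values cover the spread between these arrays, which may be technical. They also give a sort without GFP for every sample, Treg included, which leaves the Treg gate unclear. As labelled, the genotypes differ by the Foxp3 allele of KI and by the transgene of WT at once. A difference between them cannot be assigned to either. The comparison of the cell types asks how Treg differ from Tconv.

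Runx1 and Runx3 bind DNA as partners of Cbfb, which has no DNA contact of its own, and in T cells they silence Cd4, act on Cd8a and sustain Foxp3. NFAT proteins sit phosphorylated in the cytoplasm until calcium activates the phosphatase calcineurin, and then enter the nucleus, where NFAT and Foxp3 can bind DNA side by side. Foxo1 and Foxo3 are excluded from the nucleus when AKT or SGK kinases phosphorylate them, and they drive genes of survival, homing and Treg function. Foxp1 and Foxp4 belong to the same subfamily as Foxp3 and can pair with each other through a leucine zipper. Transcript levels show none of these phosphorylation or pairing steps.

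Of the 15 promoter windows searched for 9 of the genes, 2 held the Runx letters, where 16.8% of all windows did. Both held them as a pair and belonged to Runx genes themselves. The windows of Runx3 and Runx1 are shown because the same stretch stands in both, and that of Nfatc3 because it holds a forkhead motif and Nfatc3 differed between the cell types. Each runs from 250 bases before to 50 after a transcript start of GRCm38.p6 in RefSeq, 5′ to 3′ on the gene's strand, with matches in capitals. The Runx3 window is chr4:135120395-135120694 on the plus strand, the Runx1 window chr16:92826025-92826324 on the minus strand and the Nfatc3 window chr8:106058568-106058867 on the plus strand.
Runx3: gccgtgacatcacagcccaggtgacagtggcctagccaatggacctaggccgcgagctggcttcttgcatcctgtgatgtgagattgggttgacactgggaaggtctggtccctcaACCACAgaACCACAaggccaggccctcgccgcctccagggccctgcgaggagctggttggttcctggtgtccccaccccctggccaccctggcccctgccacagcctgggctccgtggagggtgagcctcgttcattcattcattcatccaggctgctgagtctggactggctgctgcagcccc
Runx1: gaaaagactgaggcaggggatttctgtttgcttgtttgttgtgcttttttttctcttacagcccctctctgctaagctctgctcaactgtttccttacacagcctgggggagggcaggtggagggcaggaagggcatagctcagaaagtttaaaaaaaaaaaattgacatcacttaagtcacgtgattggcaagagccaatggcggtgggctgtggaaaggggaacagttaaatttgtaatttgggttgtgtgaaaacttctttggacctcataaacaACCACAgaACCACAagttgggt
Nfatc3: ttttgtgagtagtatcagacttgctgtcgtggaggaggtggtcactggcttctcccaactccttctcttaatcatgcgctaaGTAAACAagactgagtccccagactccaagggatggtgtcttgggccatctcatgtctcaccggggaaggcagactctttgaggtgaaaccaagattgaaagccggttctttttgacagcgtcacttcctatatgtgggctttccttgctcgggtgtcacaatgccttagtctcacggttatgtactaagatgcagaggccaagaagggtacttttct
The capitals mark the Runx letters TGTGGT, read here as ACCACA on the other strand, in Runx3 and Runx1. In Nfatc3 they mark the forkhead letters TGTTTAC, read as GTAAACA. The 2 Runx matches began at positions -134 and -126 in Runx3 and at 28 and 36 in Runx1, counted with the start site as 0. They lie in a shared run of 18 bases, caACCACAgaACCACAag, which 4 of 32851 windows held, those of Gm16225, Runx1, Runx2 and Runx3. The forkhead match in Nfatc3 began at -168, and a window of Nfatc2, not shown, also held one, at -185. On both strands and for windows of the same length, the Runx letters occurred in 16.8% of windows, the forkhead letters in 3.65% and the NFAT letters GGAAA in 61.3%. A match is a string of letters and was not tested for binding.

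Values are on the log2 scale, so a difference of 1 is a doubling. Nonspecific signal on these arrays, read by 23 control probe sets that match no transcript, centred on 2.60 and reached 4.71, so values under about 5 lie near background. A probe set was tested if it lay above 5 on at least 4 arrays. Of the 36 member probe sets 24 were tested, of 18621 in all, and a difference passed at a limma adjusted p under 0.05. Foxo1 and Foxp4 had no tested probe set, and Nfatc2 had only the one it shares with Eogt, which left 7 genes with a tested probe set of their own.

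Foxp3 itself separated the cell types on every array. It stood at 9.92, 10.05, 9.69 and 9.39 in KI Treg and at 9.74, 10.16, 9.81 and 9.72 in WT Treg. In Tconv it lay near background, at 3.71, 3.57, 3.71 and 3.78 in KI and at 4.24, 4.96, 4.51 and 4.80 in WT. The T cell marker score, a mean log2 value over 6 genes, ranged over 10.4 to 10.6 in KI Treg, 10.4 to 10.5 in WT Treg, 10.5 to 10.6 in KI Tconv and 10.3 to 10.6 in WT Tconv. All 7 Treg markers were higher in Treg of both genotypes.

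Between the genotypes none of these partners passed the test. Between KI Treg and WT Treg 0 of 24 member probe sets passed in limma, where 1.51% of all tested probe sets and 1.93% of genes did, and 4 had an unadjusted p under 0.05. The differences ran from -0.36 to 0.32 with a median of -0.03, against 0.01 over all tested probe sets. Between KI Tconv and WT Tconv 0 of 24 passed and 1 had an unadjusted p under 0.05, where 0.0967% of all probe sets and 0.123% of genes passed. There the differences ran from -0.13 to 0.49. In the interaction, which asks whether the genotype difference is unlike in Treg and Tconv, 0 of 24 passed and 1 had an unadjusted p under 0.05, where 0.371% of all probe sets and 0.516% of genes passed. A test that was not passed leaves a range of sizes open, and the plot of KI minus WT differences gives each interval.

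**Figure D1:**
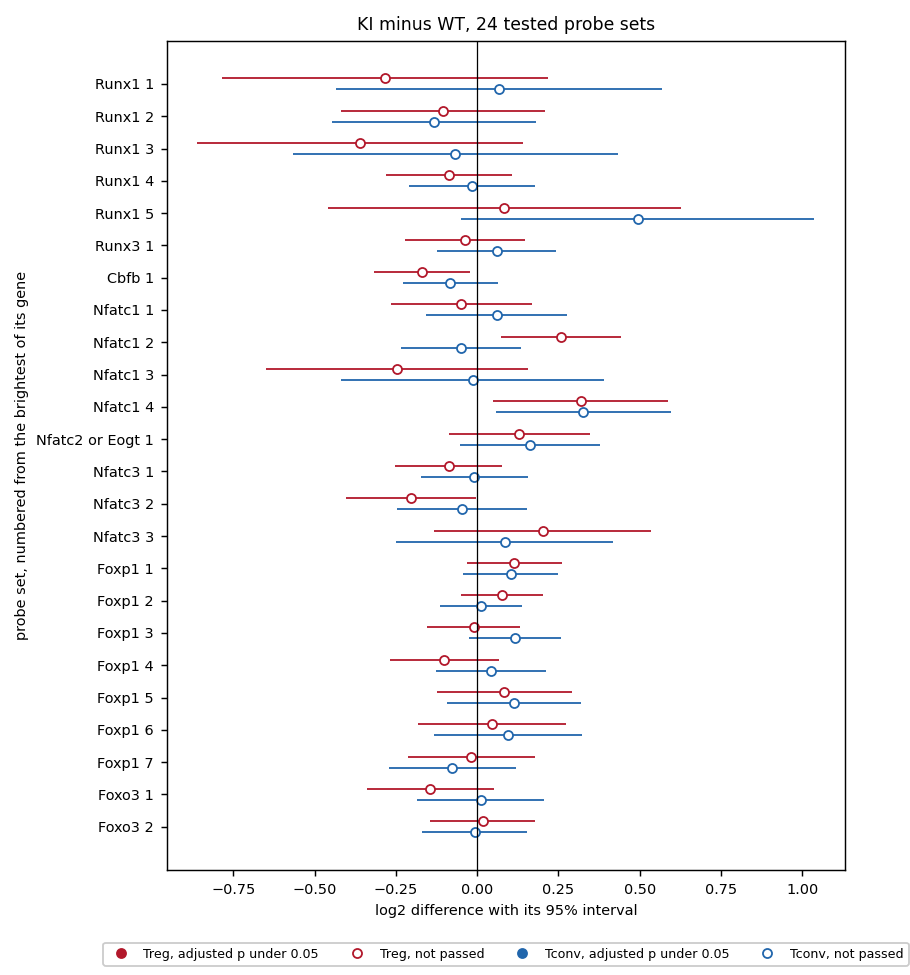
KI minus WT log2 difference of each of the 24 tested probe sets, in Treg (red) and in Tconv (blue), with its 95% interval from limma; open points did not pass. All points are open, and they lie between -0.36 and 0.49.

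The intervals show how closely each difference was measured. For Runx3 the KI minus WT difference in Treg was -0.04 with a 95% interval of -0.22 to 0.15, and for the brightest Nfatc3 probe set it was -0.09, with an interval of -0.25 to 0.08. The brightest Foxp1 probe set had 0.12 in Treg, with an interval of -0.03 to 0.26. Runx1 was measured less closely: its brightest probe set had a difference of -0.28 in Treg, with an interval of -0.79 to 0.22. The lowest adjusted p between KI Treg and WT Treg was 0.154 (limma), for a probe set of Nfatc1 described further on. Cbfb in Treg had a difference of -0.17 (SE 0.069, limma adjusted p = 0.243), and its arrays overlapped between KI Treg and WT Treg. Array numbers 4 to 9 held WT arrays and 13 to 23 KI arrays alone, and only 24 to 27 held 1 array of each group. The labels do not say what the numbers stand for. With these 3 sets as a block the genotype comparison rests mainly on the arrays 24 to 27. The calls over all 18621 probe sets then fell to 43 in Treg and 4 in Tconv. That 0 of 24 members passed there in either cell type thus says little about them. The call counts depended on the KI arrays of replicate 4, numbered 26 and 27. Without KI Treg 4 the calls over all probe sets between KI Treg and WT Treg numbered 1055 in place of 282. Without KI Tconv 4 those between KI Tconv and WT Tconv numbered 113 in place of 18. The KI arrays left in that cell type then all lie in 13 to 23, so the array and its number cannot be told apart. The member count was 0 without either array.

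Between the cell types, by contrast, 9 of the 24 probe sets were lower and 1 was higher in KI Treg than in KI Tconv. That is 41.7% of the members, where 36.6% of all tested probe sets passed, 19.7% lower and 16.9% higher. In WT Treg against WT Tconv 6 were lower and 1 was higher, 29.2% of the members, where 28.9% of all passed, 15.1% lower and 13.7% higher. The shares passing in either direction are near those of all probe sets, while 9 of the 10 calls in KI and 6 of the 7 in WT were on the lower side. The members' median difference was -0.25 in KI and -0.19 in WT, against -0.05 and -0.03 over all. The arrays of Treg and Tconv did not overlap for 10 of the 24 in KI and 8 in WT, where 31.1% and 32.8% of all tested probe sets did not. The probe sets of a gene are not independent. Counted once for each of 7 genes by its brightest probe set, Runx3, Cbfb, Nfatc3 and Foxp1 were lower in KI Treg, and Runx3, Nfatc3 and Foxp1 in WT Treg, where 39.4% and 32.6% of all genes passed in either direction. In sorted bulk samples fewer cells of a kind and less RNA per cell cannot be told apart.

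**Figure D2:**
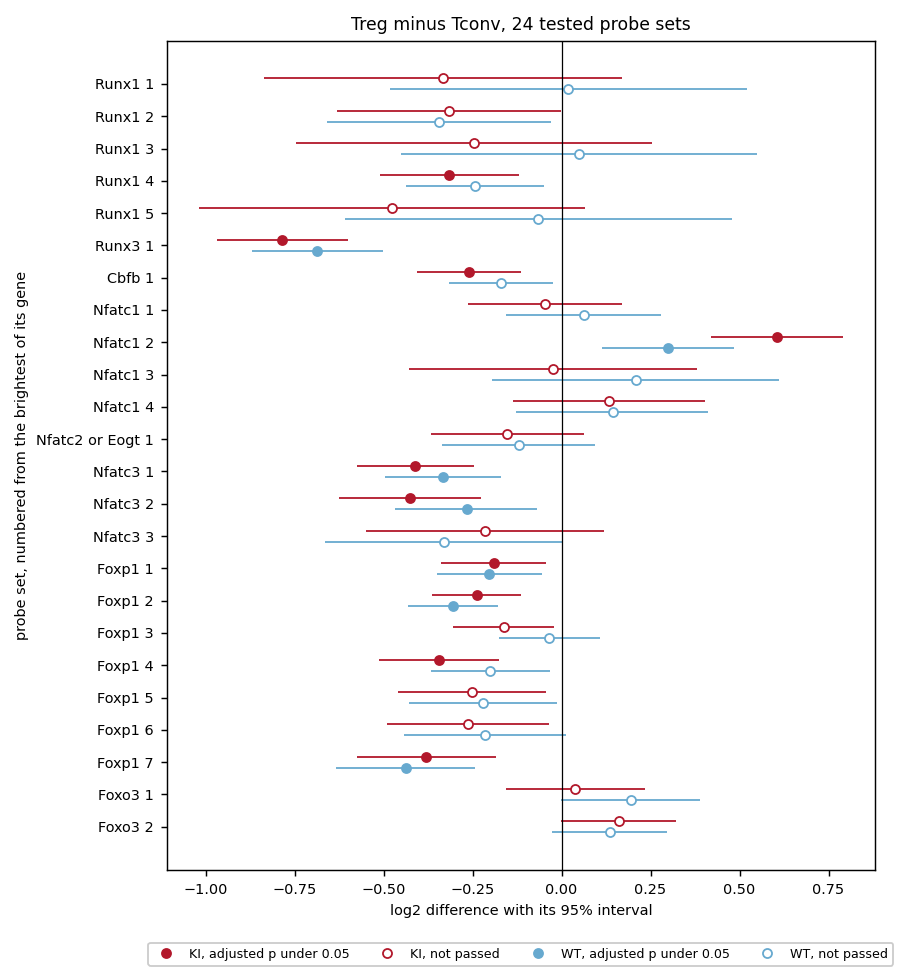
Treg minus Tconv log2 difference of each of the 24 tested probe sets, in KI (red) and WT (blue), with its 95% interval from limma; filled points passed at an adjusted p under 0.05. Runx3 lies farthest left, and only the second Nfatc1 probe set has filled points right of 0.

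Some markers of other cells moved with this comparison. The CD8 marker score, over Cd8a and Cd8b1, ranged over 5.85 to 6.26 in KI Treg, 6.11 to 6.45 in WT Treg, 5.18 to 5.61 in KI Tconv and 4.80 to 5.19 in WT Tconv. Cd8a, which is also on the Runx target list below, carried this, with differences of 1.82 in KI and 2.35 in WT, while Cd8b1 did not pass and averaged 6.16 in KI Treg, 6.09 in WT Treg, 6.42 in KI Tconv and 6.01 in WT Tconv. The dendritic cell score ranged over 4.56 to 5.10, 4.46 to 5.00, 4.32 to 4.53 and 4.30 to 4.48 in the same order of groups, with 2 of 8 markers (Irf8 and Cst3) higher in Treg and 6 under 5 on every array. Of 9 monocyte markers 2 (Ccr2 and Cybb) and of 9 B cell markers 1 (Cd79b) were higher in Treg, and the scores of both lists overlapped between all groups. Of 7 NK cell markers, Klrd1 was lower in Treg, with differences of -3.35 in KI and -3.88 in WT, and Eomes and Nkg7 were higher. The part of these cells in the results below was not tested.

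Runx3, the Runx protein that directs CD8 T cell and cytotoxic programs, had the widest range of group means among the 10 genes, 0.78. Its bright probe set 1440275_PM_at read 7.95, 7.98, 7.98 and 7.88 in KI Treg and 7.78, 8.04, 8.04 and 8.09 in WT Treg. In KI Tconv it stood at 8.59, 8.69, 8.71 and 8.93 and in WT Tconv at 8.65, 8.62, 8.59 and 8.83. Every Treg array lay below every Tconv array, and within a cell type the genotypes overlapped. Runx3 was thus 0.581-fold as high in KI Treg as in KI Tconv (difference -0.78, SE 0.087, limma adjusted p = 1.56e-06, n = 4 and 4). In WT it was 0.622-fold as high (difference -0.69, SE 0.087, limma adjusted p = 9.8e-06, n = 4 and 4). The difference passed without each array in turn and held within the arrays numbered 24 to 27, where it was -1.05 in KI and -0.74 in WT. The other Runx3 probe set lay near background in every group, at means of 3.13 to 3.28.

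Runx1, which represses Il2 together with Foxp3, gave a less even picture across its 6 probe sets. The brightest, 1452531_PM_at, averaged 6.80 ± 0.27 in KI Treg, 7.09 ± 0.42 in WT Treg, 7.13 ± 0.52 in KI Tconv and 7.07 ± 0.25 in WT Tconv (SD, n = 4). It passed in no comparison with all arrays weighted alike. The difference of KI Treg against KI Tconv was -0.33 (SE 0.238, limma adjusted p = 0.296). That difference passed without KI Tconv 4 (-0.59, limma adjusted p = 0.0311), with array weights (-0.50, limma adjusted p = 0.0186) and with arrays 4 to 23 alone (-0.59, limma adjusted p = 0.024). The arrays 24 to 27 alone gave 0.45. Probe set 1422865_PM_at had Treg minus Tconv differences of -0.32 in KI and -0.34 in WT (SE 0.148 each, limma adjusted p = 0.107 and 0.0949). For the dimmest tested one, 1427650_PM_a_at, they were -0.48 and -0.07 (SE 0.257 each, limma adjusted p = 0.163 and 0.884). Both had a KI call without KI Tconv 4 (-0.45 and -0.71, limma adjusted p = 0.0178 and 0.0292). The probe set with the smallest spread, 1440878_PM_at, read 6.57, 6.35, 6.49 and 6.36 in KI Treg and 6.51, 6.69, 6.499 and 6.42 in WT Treg. Its values were 6.95, 6.67, 6.69 and 6.71 in KI Tconv and 6.74, 6.75, 6.74 and 6.86 in WT Tconv. No Treg array reached the Tconv arrays of its own genotype. It fell in KI Treg against KI Tconv (difference -0.32, SE 0.092, limma adjusted p = 0.0127) and missed the threshold in WT (difference -0.24, SE 0.092, limma adjusted p = 0.0569). With the arrays of the 2 KI groups fitted alone the KI value had a limma adjusted p = 0.0518. The interaction was -0.07 (SE 0.13), so the KI and WT differences were not shown to differ. In 1 array, KI Treg 2, probe set 1422864_PM_at stood at 5.71, where the other KI Treg arrays had 6.92 to 7.17.

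Cbfb, the subunit that stabilises Runx on DNA, was abundant in all groups. It read 10.90, 10.85, 11.08 and 11.07 in KI Treg and 11.19, 11.02, 11.17 and 11.20 in WT Treg. Tconv arrays had 11.10, 11.19, 11.26 and 11.40 in KI and 11.28, 11.41, 11.25 and 11.33 in WT. The means thus ran in the order KI Treg, WT Treg, KI Tconv, WT Tconv, and neighbours in this order differed by no more than 0.17. Cbfb was lower in KI Treg than in KI Tconv (difference -0.26, SE 0.069, limma adjusted p = 0.0075), with no overlap. In WT the difference was -0.17 (SE 0.069, limma adjusted p = 0.0743), also with no overlap, and it passed with the 3 array sets as a block (limma adjusted p = 0.0406). Within the arrays 24 to 27 the differences were -0.33 in KI and -0.13 in WT.

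**Figure D3:**
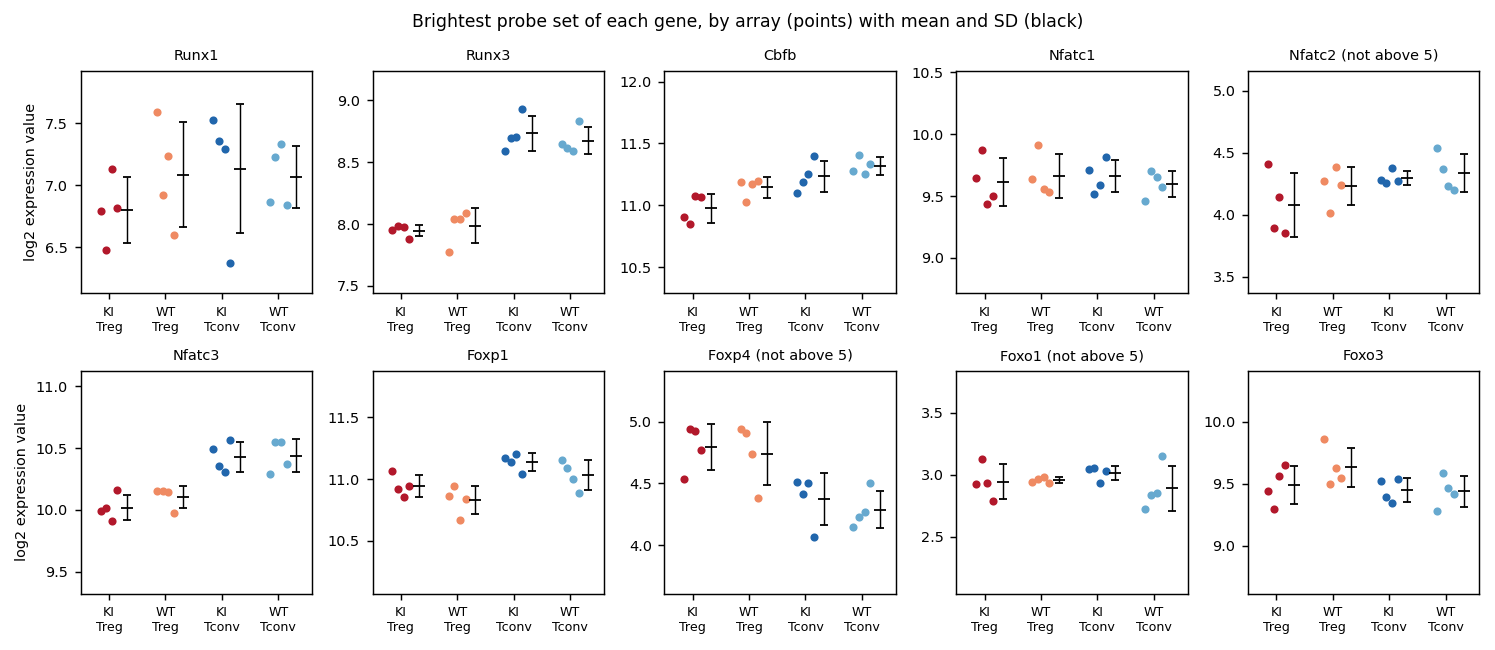
Log2 expression value of the brightest probe set of each of the 10 genes on every array (points), with the mean and SD of each group of 4 (black); panels have their own axis positions with the same span. Runx3 and Nfatc3 Treg arrays lie wholly below the Tconv arrays, and the Nfatc2, Foxp4 and Foxo1 panels lie under 5.

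Nfatc3, an NFAT protein found in resting T cells, fell in Treg by its brightest probe set, 1419976_PM_s_at. It read 9.99, 10.02, 9.91 and 10.16 in KI Treg and 10.15, 10.15, 10.14 and 9.97 in WT Treg. The Tconv values were 10.49, 10.36, 10.30 and 10.57 in KI and 10.29, 10.55, 10.55 and 10.37 in WT. All Treg arrays lay under all Tconv arrays, and Treg stood at 0.752-fold of Tconv in KI (difference -0.41, SE 0.078, limma adjusted p = 0.000484) and 0.794-fold in WT (difference -0.33, SE 0.078, limma adjusted p = 0.00346). The arrays 24 to 27 alone gave -0.41 in KI and -0.40 in WT. A second probe set, 1452497_PM_a_at, had differences of -0.43 in KI (SE 0.094, limma adjusted p = 0.00193) and -0.27 in WT (SE 0.094, limma adjusted p = 0.0425). The WT call of that second probe set was lost in 10 of the 16 fits that leave out 1 array. Within the arrays 24 to 27 its differences were -0.04 in KI and -0.29 in WT. The third and dimmest, 1419977_PM_s_at, had -0.21 and -0.33, with adjusted p of 0.313 and 0.131 (limma).

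Nfatc1, whose short isoform is made from a promoter that NFAT itself induces, split by probe set. The brightest, 1428479_PM_at, averaged 9.61 ± 0.20 in KI Treg, 9.66 ± 0.18 in WT Treg, 9.66 ± 0.13 in KI Tconv and 9.60 ± 0.11 in WT Tconv (SD, n = 4). Its 4 means lay within 0.06, the narrowest range among the 10 genes, and it passed in no comparison. In contrast, 1417621_PM_at read 7.99, 8.22, 8.18 and 8.06 in KI Treg and 7.87, 7.90, 7.99 and 7.65 in WT Treg. In Tconv it read 7.39, 7.59, 7.54 and 7.49 in KI and 7.48, 7.71, 7.54 and 7.49 in WT. Every KI Treg array was above every Tconv array, while the lowest WT Treg array lay below the highest WT Tconv array. It was 1.52-fold higher in KI Treg than in KI Tconv (difference 0.61, SE 0.088, limma adjusted p = 3.32e-05) and 1.23-fold higher in WT Treg than in WT Tconv (difference 0.30, SE 0.088, limma adjusted p = 0.0162). The WT call was lost without WT Treg replicate 3 (difference 0.25, limma adjusted p = 0.0617). Within the arrays 24 to 27 the differences were 0.57 in KI and 0.16 in WT.

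The same probe set had the lowest adjusted p of all members between the genotypes in Treg. KI Treg minus WT Treg was 0.26 (SE 0.088, interval 0.07 to 0.44, limma adjusted p = 0.154), and KI Treg 1 lay below WT Treg 3. Within the arrays 24 to 27 the difference was 0.41, with no test, and with the 3 array sets as a block 0.36 (SE 0.127, limma adjusted p = 0.489). The interaction was 0.31 (SE 0.124, limma adjusted p = 0.612).

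As both probe sets were read on the same arrays, their log2 ratio could be compared within each array. The value of 1417621_PM_at minus that of 1428479_PM_at ranged over -1.66 to -1.26 in KI Treg and -2.32 to -1.93 in KI Tconv, with no overlap. The means differed by 0.65 (two-sided exact permutation p = 0.0286, the smallest that 70 assignments allow, or 0.171 after adjustment over 8 such tests). In WT Treg it ranged over -2.02 to -1.57, against -2.12 to -1.98 in WT Tconv, a difference of 0.24 (exact permutation p = 0.0857, adjusted 0.171). None of the 8 ratio tests passed after adjustment. With 4 arrays in a group, 1 test at the smallest possible p could not have passed by itself. The ratio tests thus cannot decide whether these probe sets changed unequally. The 2 other tested probe sets passed in no comparison with all arrays weighted alike. For 1425761_PM_a_at the KI minus WT difference in Treg was -0.25 (SE 0.191, limma adjusted p = 0.546). The other, 1447084_PM_at, lay just above 5, and its KI minus WT difference was 0.32 in Treg and 0.33 in Tconv (SE 0.128 each, limma adjusted p = 0.236 and 0.881).

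**Figure D4:**
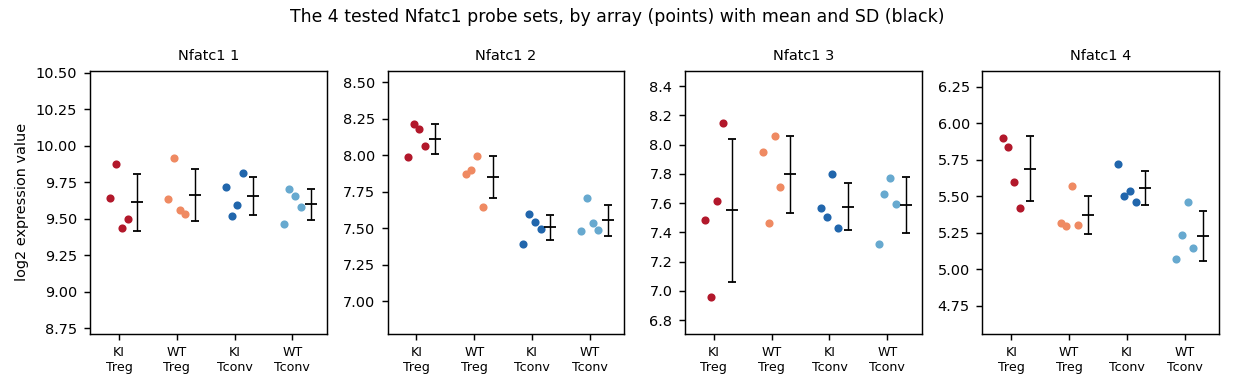
Log2 expression value of the 4 tested Nfatc1 probe sets, numbered from the brightest, on every array (points), with the mean and SD of each group of 4 (black). The first is level across the groups, and in the second all KI Treg arrays (7.99 to 8.22) lie above all Tconv arrays (7.39 to 7.71).

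Nfatc2, the main NFAT protein of resting T cells, was not measured above background by a probe set of its own. Its 3 own probe sets had group means of 3.51 to 4.34. The 2 probe sets it shares with Eogt, a glycosyltransferase gene, stood at means of 8.21 to 8.50 and 2.70 to 2.91. The bright shared one passed in no comparison with all arrays weighted alike. Its differences between Treg and Tconv were -0.15 in KI and -0.12 in WT (SE 0.102 each, limma adjusted p = 0.26 and 0.411). Nothing here tells which of the 2 genes that signal belongs to.

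Foxp1, which maintains the quiescence of naive T cells, was lower in Treg by 4 of its 7 probe sets in KI and 3 of 7 in WT, and the remaining ones, which include 1421140_PM_a_at, 1421141_PM_a_at and 1421142_PM_s_at in both genotypes, had negative differences too, from -0.04 to -0.26. The brightest, 1435222_PM_at, read 11.07, 10.92, 10.86 and 10.94 in KI Treg and 10.87, 10.95, 10.67 and 10.84 in WT Treg. Tconv arrays held 11.17, 11.14, 11.20 and 11.04 in KI and 11.16, 11.09, 11.00 and 10.88 in WT. The groups overlapped, and the differences of -0.19 in KI and -0.20 in WT (SE 0.069 each, limma adjusted p = 0.0403 and 0.0367) each passed in 10 of the 16 fits that leave out 1 array. Within the arrays 24 to 27 they were -0.10 and -0.04.

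A firmer difference came from 1455242_PM_at. It read 10.16, 10.17, 10.14 and 10.14 in KI Treg and 10.07, 10.19, 10.07 and 9.98 in WT Treg. In Tconv the values were 10.48, 10.33, 10.35 and 10.41 in KI and 10.41, 10.50, 10.35 and 10.26 in WT. All Treg arrays were below all Tconv arrays, with differences of -0.24 in KI (SE 0.06, limma adjusted p = 0.00476) and -0.31 in WT (SE 0.06, limma adjusted p = 0.000816), and the arrays 24 to 27 alone gave -0.27 and -0.28. Probe set 1435221_PM_at had the largest Foxp1 differences, -0.38 in KI and -0.44 in WT (SE 0.092 each, limma adjusted p = 0.00385 and 0.00153), with no overlap. For 1438802_PM_at the difference was -0.34 in KI (SE 0.079, limma adjusted p = 0.0026) and -0.20 in WT (SE 0.079, limma adjusted p = 0.07). Its interaction was -0.15 (SE 0.112, limma adjusted p = 0.892), so the genotypes were not shown to differ there. The KI difference was -0.07 within the arrays 24 to 27.

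Foxp4, the close relative of Foxp1, had 3 probe sets that all stayed under 5 on every array. The brightest averaged 4.80 ± 0.19 in KI Treg, 4.74 ± 0.26 in WT Treg, 4.38 ± 0.21 in KI Tconv and 4.29 ± 0.15 in WT Tconv (SD, n = 4), so it had the second widest range of means, 0.51. When probe sets near background were admitted, another one, 1429719_PM_at, was higher in WT Treg than in WT Tconv (difference 0.50, SE 0.138, limma adjusted p = 0.0186). The brightest then lay just inside the threshold in WT (difference 0.45, limma adjusted p = 0.05 after rounding) and had 0.0586 in KI (difference 0.42, SE 0.147 each), at levels where differences understate the fold.

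Foxo1, the forkhead factor most closely tied to Treg development, was represented by 1 probe set alone. It stayed at background in every group, with means of 2.94 in KI Treg, 2.96 in WT Treg, 3.01 in KI Tconv and 2.89 in WT Tconv. Whether Foxo1 is absent or this probe set does not detect it cannot be told apart. Foxo3, its relative with overlapping functions, was well above background. Its brightest probe set averaged 9.49 ± 0.15 in KI Treg, 9.63 ± 0.16 in WT Treg, 9.45 ± 0.10 in KI Tconv and 9.44 ± 0.13 in WT Tconv (SD, n = 4). The second averaged 8.16 ± 0.09, 8.15 ± 0.05, 8.00 ± 0.08 and 8.01 ± 0.13 in the same groups. Neither passed in any comparison with all arrays weighted alike. The smallest adjusted p were then 0.131 for the first in WT (difference 0.19) and 0.113 for the second in KI (difference 0.16, limma).

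The genes whose values over the 16 arrays were most like those of the 3 members with the widest range were found by Pearson correlation. For Runx3 these were Il1rl2 (0.974), Inafm2 (0.974) and Rapgef2 (0.973), for Nfatc3 Foxk1 (0.95), Rflnb (0.939) and Rnf166 (0.939), and for Foxp4 Hmces (0.863), Tex35 (0.862) and Rgs16 (0.856). These values describe arrays that fall into Treg and Tconv and carry no test.

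Other genes of the same pathways were counted once each, by their brightest probe set. Over all 8135 tested genes, 20.5% were higher and 18.9% lower in KI Treg than in KI Tconv, with a median difference of -0.02. In WT 15.9% were higher and 16.6% lower in Treg, with a median of -0.03. Of 6 other Runx family and corepressor genes 2 were higher and 2 lower in Treg of each genotype, with medians of -0.01 in KI and 0.04 in WT. Hipk2, a kinase of Runx proteins, averaged 9.56 ± 0.17 in KI Treg against 7.95 ± 0.33 in KI Tconv, and 9.55 ± 0.13 in WT Treg against 8.21 ± 0.07 in WT Tconv (SD, n = 4). Its differences were 1.61 and 1.35 (SE 0.129, limma adjusted p = 2.73e-08 and 3.5e-07). The Groucho corepressor gene Tle4 differed by -0.61 in KI and -0.65 in WT and Tle3 by -0.30 and -0.28.

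In the calcineurin and calcium entry list 3 of 20 genes were higher and 5 lower in KI Treg, and 4 and 4 in WT Treg, with medians of -0.05 and -0.07. Ppp3ca, a catalytic subunit gene of calcineurin, was higher in Treg by 0.86 in KI and 0.77 in WT (SE 0.091, limma adjusted p = 9.86e-07 and 4.84e-06). Stim2, a calcium sensor of the endoplasmic reticulum, was higher by 0.75 and 0.52, while the channel gene Orai2 had differences of -0.85 and -0.78. Of 9 genes of NFAT kinases and other NFAT factors 1 was higher and 4 lower in KI Treg, and 1 and 3 in WT Treg, with medians of -0.15 and -0.04. The casein kinase gene Csnk1e differed by -0.83 in KI and -0.89 in WT. Nfat5, the calcineurin-independent NFAT relative, was higher by 0.55 and 0.65.

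Dyrk2, a kinase that phosphorylates NFAT, was the 1 gene of these upstream lists to pass between KI Treg and WT Treg, where 1.93% of genes passed. It averaged 9.05 ± 0.18 in KI Treg, 9.51 ± 0.08 in WT Treg, 10.04 ± 0.20 in KI Tconv and 10.12 ± 0.07 in WT Tconv (SD, n = 4). KI Treg minus WT Treg was -0.46 (SE 0.097, limma adjusted p = 0.0211). The call was lost in 5 of 16 fits that leave out 1 array and with the 3 array sets as a block (difference -0.21, SE 0.094, limma adjusted p = 0.716). Between the cell types Dyrk2 was lower in Treg, with differences of -0.997 in KI and -0.61 in WT.

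Among 7 other forkhead genes 2, Foxk1 and Foxn2, were lower in Treg of each genotype, Foxk1 with differences of -0.58 in KI and -0.52 in WT. The list of PI3K and AKT genes that control Foxo had 3 of 23 genes higher and 9 lower in KI Treg, and 2 and 7 in WT Treg, with medians of 0.01 and -0.002. Sgk1, a kinase that keeps Foxo proteins out of the nucleus, averaged 8.72 ± 0.20 in KI Treg against 10.87 ± 0.10 in KI Tconv, and 8.50 ± 0.11 in WT Treg against 10.88 ± 0.12 in WT Tconv (SD, n = 4). Its differences were -2.15 and -2.38 (SE 0.092, limma adjusted p = 9.38e-12 and 3.9e-12). Phlpp1, a phosphatase that dephosphorylates AKT, went the other way, with differences of 2.39 and 2.21 (SE 0.111). Pik3r5, a subunit of PI3K gamma, differed by -1.27 and -1.01.

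**Figure D5:**
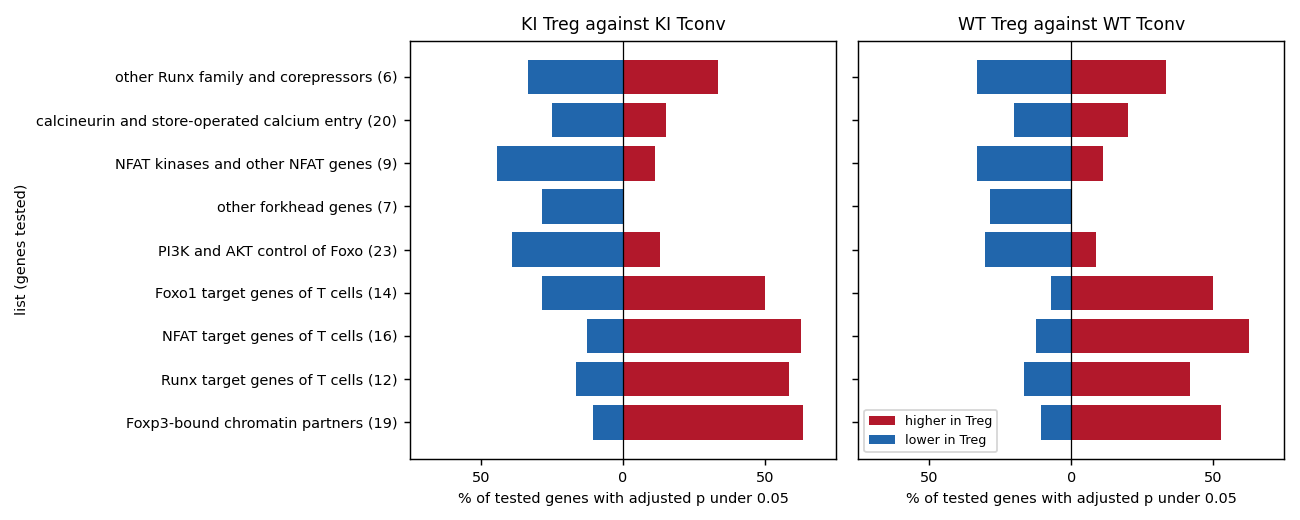
Share of the tested genes of each list that were higher (red, right) or lower (blue, left) in Treg than in Tconv at an adjusted p under 0.05, in KI (left panel) and WT (right panel); the number of tested genes follows each name. Lower genes outnumber higher ones in the PI3K and AKT list, and higher ones outnumber lower ones in the 3 target lists and the list of Foxp3-bound chromatin partners.

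In the target lists of the members more genes were higher than lower in Treg of both genotypes. Many of them, such as Foxp3, Ctla4 and Il2ra, are also Treg markers, so the counts are not independent of those markers. Of all tested genes, 20.5% were higher and 18.9% lower in KI Treg, and 15.9% and 16.6% in WT Treg. In KI Treg against KI Tconv, 10 of 16 NFAT targets were higher and 2 lower, 7 and 2 of 12 Runx targets, and 7 and 4 of 14 Foxo1 targets, with medians of 0.89, 0.83 and 0.30. In WT Treg against WT Tconv the counts were 10 and 2, 5 and 2, and 7 and 1, with medians of 0.72, 0.17 and 0.25. Of 19 Foxp3-bound chromatin partners 12 were higher and 2 lower in KI Treg, and 10 and 2 in WT Treg, with medians of 0.43 and 0.34. That list counts Foxp3 itself and Ikzf4, which are Treg markers and higher in Treg of both genotypes.

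Of the targets 4 passed between KI Treg and WT Treg, where 1.93% of all tested genes passed. They were 2 of 12 Runx targets, higher in KI Treg, and 2 of 14 Foxo1 targets, lower in KI Treg. Of 16 NFAT targets 0 passed. Gzmb, which encodes granzyme B, averaged 8.19 ± 0.17 in KI Treg, 7.44 ± 0.30 in WT Treg, 3.67 ± 0.16 in KI Tconv and 4.21 ± 0.25 in WT Tconv (SD, n = 4). Itgae, the CD103 integrin gene, averaged 8.21 ± 0.27, 7.45 ± 0.33, 3.54 ± 0.25 and 4.26 ± 0.11 in the same groups. Both Runx targets were higher in KI Treg than in WT Treg, Gzmb by 0.76 (SE 0.155, limma adjusted p = 0.019) and Itgae by 0.76 (SE 0.168, limma adjusted p = 0.0285). Their interactions also passed, with 1.29 (limma adjusted p = 0.0104) for Gzmb and 1.49 (limma adjusted p = 0.00704) for Itgae, though the Tconv values lie near background. Without each array in turn the KI Treg call held in 12 of 16 fits for Gzmb and in 11 of 16 for Itgae, and with the 3 array sets as a block it was lost (differences 0.67 and 0.71, limma adjusted p = 0.569 and 0.567).

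The Foxo1 targets were Btg1, an antiproliferative gene, and Sesn3, a stress-response gene of the sestrin family. Btg1 averaged 12.53 ± 0.06 in KI Treg and 12.71 ± 0.04 in WT Treg (SD, n = 4), a difference of -0.18 (SE 0.038, limma adjusted p = 0.02). Sesn3 averaged 9.85 ± 0.21 in KI Treg and 10.30 ± 0.14 in WT Treg (SD, n = 4), a difference of -0.45 (SE 0.103, limma adjusted p = 0.0356). The median of the 14 tested Foxo1 targets was -0.17 between KI Treg and WT Treg, against 0.04 over all tested genes. For NFAT targets it was -0.035 and for Runx targets 0.07. Between KI Tconv and WT Tconv the Foxo1 target median was -0.08, against 0.01 over all. These medians carry no test. Without each array in turn the calls held in 11 and 10 of 16 fits, and both were lost with the 3 array sets as a block (differences -0.14 and -0.26, limma adjusted p = 0.671 and 0.791).

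Ikzf2, an NFAT target that encodes Helios, was lower in KI Tconv, at 8.37, 8.02, 8.30 and 8.10, than in WT Tconv, at 9.06, 9.06, 8.91 and 9.06. The difference of -0.83 (SE 0.073, limma adjusted p = 1.8e-05) passed without each array in turn and with the 3 array sets as a block (-0.90, limma adjusted p = 0.00829). Foxp3 was lower in KI Tconv too (difference -0.93, SE 0.158, limma adjusted p = 0.0206), near background, and the call held in 11 of 16 fits without 1 array and was lost with the block (limma adjusted p = 0.57). Nrp1, another Treg marker, averaged 6.11 ± 0.24 in KI Tconv and 6.89 ± 0.23 in WT Tconv (SD, n = 4), and 3 of the 7 Treg markers were lower in KI Tconv. Among Foxp3-bound chromatin partners Hdac9, a deacetylase gene, and Hif1a were higher in KI Treg than in WT Treg, by 0.95 (SE 0.168, limma adjusted p = 0.00663) and 0.31 (SE 0.062, limma adjusted p = 0.0155). Hdac9 averaged 5.23 ± 0.18 in KI Treg against 4.28 ± 0.35 in WT Treg (SD, n = 4). It was tested only because the KI Treg arrays lie above 5, and every other array lay under 5, with WT Treg within the nonspecific range. With the 3 array sets as a block Hdac9 had 0.81 (limma adjusted p = 0.344) and Hif1a 0.46 (limma adjusted p = 0.044). Without each array in turn the Hdac9 call held in 16 of 16 fits and the Hif1a call in 12. With the arrays of KI Treg and WT Treg fitted alone Hif1a did not pass (limma adjusted p = 0.0739).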

How the data were processed

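The values used are the log2 expression values that the authors deposited for 16 one-colour arrays. The authors made them with RMA in Partek 6.5, per the submitters' processing notes. RMA options and an annotation build are not given in the sources used here. Array medians ran from 3.69 to 3.76 and within-group correlations over all probe sets from 0.9885 to 0.997, and 0 pairs of arrays were identical. The number of arrays limits the precision.

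Genes were named from the platform annotation: 28898 probe sets had 1 gene, 551 several and 15588 none. Symbols were updated through gene IDs for 28689. Probe sets above 5 on at least 4 arrays (18621, or 8135 genes by their brightest one) were fitted in limma 3.58.1 (R 4.3.3), with a mean per group over all 16 arrays, a variance trend, and Benjamini-Hochberg adjustment over all 18621. The fit was tested on simulated data.

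The text names each member's brightest probe set and its other tested ones that differ in call or sign, up to 4 called genes of lowest p per list and comparison, and, for the 3 members of widest group means, the 3 genes with the highest Pearson r over 16 arrays. The members and lists were chosen with earlier results of these data known. The alternatives changed the filter, variance trend, arrays fitted, centring, probe sets per gene, array blocks and array weights.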

Additional observations from a re-analysis of the deposited data

Results flagged for a closer look

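In 14 of 144 member groups of 4 arrays, 1 array stood far from the other 3, its gap to the nearest taking up nearly the whole range of the group. Chance flags about 1 in 20 such groups. Among the probe sets that were tested, Runx3 had 7.776 in WT Treg 1, where the other WT Treg arrays had 8.04 to 8.09, and Cbfb had 11.023 in WT Treg 2, where the others had 11.17 to 11.20. The brightest Nfatc3 probe set had 9.974 in WT Treg 4, against 10.14 to 10.15 on the others. The Runx1 probe set of smallest spread had 6.949 in KI Tconv 1, where the others had 6.67 to 6.71, and 6.863 in WT Tconv 4, where the others had 6.74 to 6.75. A dim Nfatc1 probe set had 5.569 in WT Treg 3, against 5.29 to 5.31. The bright probe set shared by Nfatc2 and Eogt had 8.022 in WT Tconv 1, against 8.42 to 8.46. A Foxp1 probe set had 10.3 in KI Tconv 1, where the others had 10.15 to 10.17, and 9.895 in WT Tconv 3, where the others had 10.13 to 10.15. Another Foxp1 probe set had 9.86 in WT Treg 2, against 9.65 to 9.66.

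The other 4 lay near background. They were a Runx1 probe set with 4.042 in KI Tconv 4, a pair of Nfatc2 probe sets with 3.828 in WT Tconv 3 and 3.318 in WT Tconv 2, and the dim probe set shared with Eogt with 2.415 in KI Treg 4. The calls given for Runx3 and for the brightest Nfatc3 probe set passed without each array in turn.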

How the results depend on the processing

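No difference of a member or named list gene that was called in the main fit reversed under any alternative run. Differences called under an alternative alone could change sign under another, as given below. Leaving out 1 array gave 0 member calls between the genotypes and in the interaction. It gave 9 to 13 between KI Treg and KI Tconv, where 5689 to 6869 of all 18621 probe sets passed. Between WT Treg and WT Tconv it gave 4 to 9, where 4569 to 5766 of all passed. The member count was 4 there without WT Treg replicate 3. Between KI Treg and WT Treg, arrays 4 to 23 alone gave 1 member call, where 1101 of all 18621 probe sets passed. It was Nfatc3 (-0.31, limma adjusted p = 0.0413, but 0.13 within arrays 24 to 27). In arrays 4 to 23 each genotype lies in array numbers of its own. Array weights gave 4 member calls between KI Treg and WT Treg (probe sets of Foxp1, Nfatc1, Nfatc3 and Cbfb), where 3385 of all 18621 passed. Between KI Tconv and WT Tconv, arrays 4 to 23 alone gave 1 member call, where 316 of all probe sets passed. It was Runx1 (0.76, limma adjusted p = 0.0353), for which arrays 24 to 27 gave -0.31 and the block of 3 sets -0.23. Array weights raised the Treg against Tconv calls to 16 in KI and 11 in WT. Over all 18621 probe sets the calls also rose, to 10018 and 6819 from 6806 and 5373. With 1 probe set per gene, of 7 tested, 4 and 3 passed, where 3342 and 2816 of all 8135 genes did. No paired analysis was possible because the labels give no replicate numbers shared between groups. Array number sets as a block gave 0 member calls between genotypes, 10 to 11 in KI and 9 in WT between the cell types. Over all 18621 probe sets the cell type calls were then 7369 to 7652 in KI and 5931 to 6252 in WT. The causes were not tested.

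Over all probe sets, the 282 calls between KI Treg and WT Treg became 174 with those groups alone, 567 with 2 array sets as a block, 43 with 3, 141 with a random block, 1101 with arrays 4 to 23 and 3385 with array weights. The 18 between KI Tconv and WT Tconv became 11, 21, 4, 15, 316 and 572 in the same order. The 69 of the interaction became 112, 122, 100, 105 and 767 from the first block onward. Leaving out 1 array gave 125 to 1055, 8 to 113 and 45 to 128 in these 3 tests. Alternatives on list genes were chosen after seeing the data. Signal near background limits what can be said of Foxo1, Foxp4 and Nfatc2; without the filter 2 Foxp4 probe sets passed in WT.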
